A study of Mus musculus with 16 samples.

Results

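All 3 knockdowns of transcription factor genes in cultured mouse spermatogonial stem cells were pooled and compared with 1 negative control siRNA (short interfering RNA). The comparison used 15 of the 16 arrays of the series: 4 with Etv5 siRNA, 3 with Bcl6b siRNA (replicates 2, 3 and 4), 4 with Pou3f1 siRNA and 4 with the negative control. Bcl6b knockdown replicate 1 was held out for the 3' bias of its RNA. The pooled value was the mean of the 3 knockdown group means, so that each knockdown had the same weight. Genes were then sorted by whether all 11 knockdown arrays lay above, or all below, the 4 control arrays. This held, together with a call in the pooled test, for 574 of 11114 tested genes.

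The cells had been expanded from Thy1+ germ cells of C57BL\6 background, in serum-free medium with GDNF (20 ng/ml), soluble GFRA1 (150 ng/ml) and FGF2 (1 ng/ml), which all groups shared. All groups were treated with siRNA for 30 h, and only the siRNA differed. The siRNA sequences and the number of oligonucleotides per target are not given in the sources used here. No group without siRNA was analysed here. Any gene that the control siRNA itself had moved would therefore appear on 1 side in all 3 knockdowns, and 1 control siRNA cannot separate its own effect from an effect that the 3 knockdowns share. This limit holds for every difference below, since every knockdown was set against the same 4 control arrays.

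Spermatogonial stem cells are the germ cells of the testis that renew themselves and supply sperm production. GDNF, signalling through the RET receptor and its co-receptor GFRA1, supports their renewal, and Etv5, Bcl6b and Pou3f1 encode transcription factors that are known to respond to it. An siRNA acts through the RNA interference machinery, which pairs it with a matching transcript, and it can also lower transcripts that match only its seed.

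The median probe set intensity of the 15 arrays ran from 15.8 to 17.3. The 3 Bcl6b arrays, at 16.8 to 17.3, stood above all the others, which reached 16.7, and the control arrays lay between 15.8 and 16.4. The arrays' mean correlation with one another was 0.996 to 0.997. The log2 difference between the 3' and 5' control probe sets of Gapdh was -0.53 to -0.45, with the control arrays inside that range at -0.51 to -0.45. On the held-out array it was 1.03, and its mean correlation was 0.975. Nothing in the labels ties the replicates to separate cultures, so that a p-value here reflects how far these samples spread, which may be technical. Precision is limited by how many arrays there were.

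The 3 target genes were lowered by their own siRNA. On the log2 scale, after adding 1 to each intensity, Etv5 differed from control by -1.49 in Etv5 knockdown, Bcl6b by -1.05 in Bcl6b knockdown and Pou3f1 by -0.69 in Pou3f1 knockdown. All 3 were also called in the pooled test, at -0.43, -0.67 and -0.31, although Etv5 stood at 0.15 and 0.05 in Bcl6b and Pou3f1 knockdown. Bcl6b stood at -1.10 in Etv5 knockdown, about as low as in its own, and at 0.13 in Pou3f1 knockdown, and Pou3f1 at -0.12 in both other knockdowns. A pooled call can thus come from 1 or 2 knockdowns, which is why the account below is about genes whose arrays did not overlap. None of the 3 targets was among these.

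In the pooled comparison 1540 genes (13.9% of those tested) were called, which means a Benjamini-Hochberg adjusted p under 0.05 in limma's moderated test. Of these 554 (4.98%) were higher and 986 (8.87%) lower in the knockdowns. With each array centred on its median the split was 382 higher and 1435 lower, so that the higher calls were 21% of all calls in place of 36%. The 11 knockdown arrays all lay above the controls for 260 genes (2.34%) and all below for 346 (3.11%), in sum 606 (5.45%). The higher genes were 42.9% of these, against 31.6% with median centring and 53.1% with quantile normalization. Called and not overlapping were 253 higher genes (2.28%) and 321 lower genes (2.89%), or 574 in all (5.16%).

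The rises were larger than the falls. The median pooled log2 difference was 0.27 for the 253 higher genes and -0.19 for the 321 lower genes, beside -0.03 for all tested genes. A difference of at least 0.5 was reached by 33 of the higher genes and 4 of the lower ones, beside 39 (0.351%) and 13 (0.117%) of all tested genes. A difference of at least 0.3 was reached by 104 higher genes and 29 lower genes. At least 1 was reached by Ankrd29, Exoc4 and Phex, and by no gene of the 321. The genes were picked for not overlapping on these arrays, so their adjusted p-values describe them and are no independent support.

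**Figure D1:**
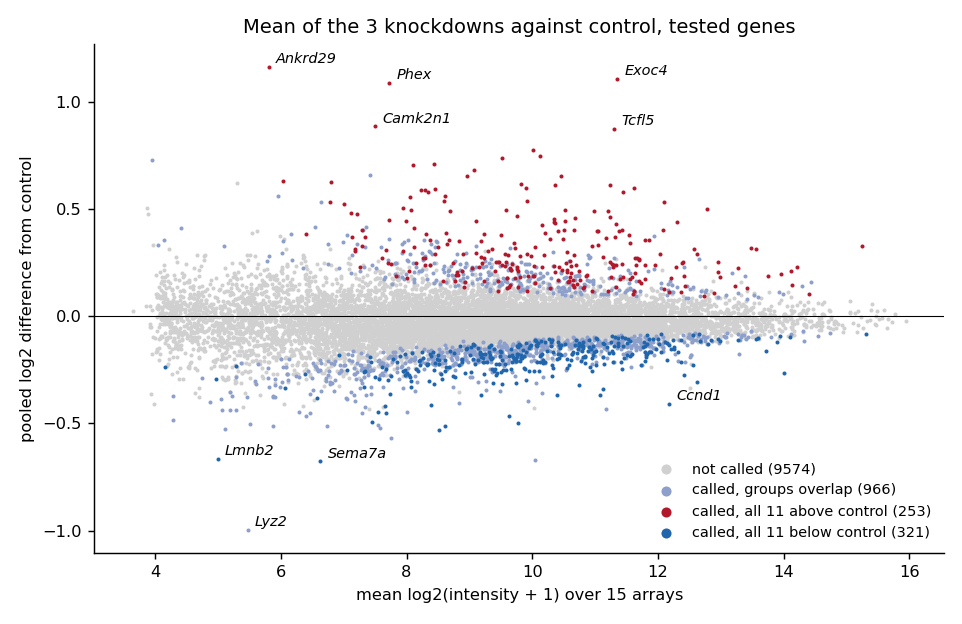
Pooled log2 difference (mean of the 3 knockdowns minus control) of each tested gene against its mean log2(intensity + 1) over the 15 arrays. Grey points (9574) were not called, pale blue ones were called with overlapping groups, and red (253) and dark blue (321) ones were called with all 11 knockdown arrays above or below control. Rises reach 1.17 for Ankrd29, while the largest fall of a non-overlapping gene is -0.68, for Sema7a.

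The boundary of the selection had no gap. Just inside it, Ube2j1 had a highest knockdown array of 1306 and a lowest control array of 1306 intensity units, which differed by 0.000188 on the log2 scale. Just outside, the lowest knockdown array and the highest control array of Hgf were both at 177.4. Ranking by the pooled difference does not keep such genes out, since a named rise, Kctd14, had its lowest knockdown array at 104 and its highest control array at 103.

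Exoc4, a subunit of the exocyst that tethers secretory vesicles to the plasma membrane, had a gap of 0.89 on the log2 scale between its highest control and lowest knockdown array. Its intensity was 1424, 1443, 1547 and 1520 on the control arrays. It was 3185, 3319, 3043 and 3222 in Etv5 knockdown, 3292, 2864 and 3131 in Bcl6b knockdown, and 3245, 3648, 3181 and 3283 in Pou3f1 knockdown. Control and knockdown arrays were well apart, and the 3 knockdown groups overlapped one another. The pooled difference was 1.11 ± 0.04 (SE), a 2.16-fold rise, with a limma Benjamini-Hochberg adjusted p of 4.62e-12. The shifts were 1.11 in Etv5, 1.06 in Bcl6b and 1.17 in Pou3f1 knockdown. Of 4 other Exoc4 probe sets, 3 rose by 0.94, 0.98 and 0.85, and a dim one differed by 0.05 (limma adjusted p 0.673 over all probe sets). The other 11 tested exocyst genes, with differences from -0.10 to 0.12, were not called, and 2 of them had an unadjusted limma p under 0.05. With the mean over probe sets, however, 3 of the 12 exocyst genes, Exoc4 among them, were called higher and 0 lower.

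Tcfl5, a basic helix-loop-helix transcription factor best known from spermatocytes, shifted by nearly the same amount in each knockdown. Its intensity was 1653, 1578, 1603 and 1624 on the control arrays. In the knockdowns it was 2912, 3216, 3115 and 2779 for Etv5, 2918, 2813 and 2919 for Bcl6b, and 3020, 3034, 3031 and 3003 for Pou3f1. Every knockdown array was higher than every control array. The Etv5 arrays overlapped with both other knockdowns, while every Bcl6b array lay below every Pou3f1 array. The pooled rise was 0.88 ± 0.03 (SE), or 1.84-fold, with a limma adjusted p of 4.62e-12. The shifts were 0.89, 0.84 and 0.90 in Etv5, Bcl6b and Pou3f1 knockdown.

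Phex, a membrane peptidase known for its part in phosphate balance and bone mineral, rose from a lower level. Its control arrays read 117, 107, 108 and 160. The Etv5 arrays read 268, 236, 245 and 254, the Bcl6b arrays 268, 285 and 274, and the Pou3f1 arrays 272, 236, 222 and 288. One control array, replicate 4, was higher than the other controls and still below every knockdown array. The rise was 1.09 ± 0.09 (SE), or 2.13-fold, with a limma adjusted p of 1.86e-07.

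Ankrd29, which encodes a protein of ankyrin repeats, had the largest pooled difference and was the dimmest of these 4. Its control arrays read 26.1, 27.7, 30.6 and 34.6. The Etv5 arrays read 76.7, 74.3, 72.4 and 74.9, the Bcl6b arrays 59.0, 46.3 and 52.0, and the Pou3f1 arrays 77.5, 103, 67.5 and 72.0. The Bcl6b arrays were above all controls and below all arrays of the other knockdowns. The pooled rise was 1.17 ± 0.10 (SE), or 2.24-fold, with a limma adjusted p of 2.3e-07, and adding 1 to dim values makes this a slight understatement. A second probe set of the gene rose by 0.59.

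**Figure D2:**
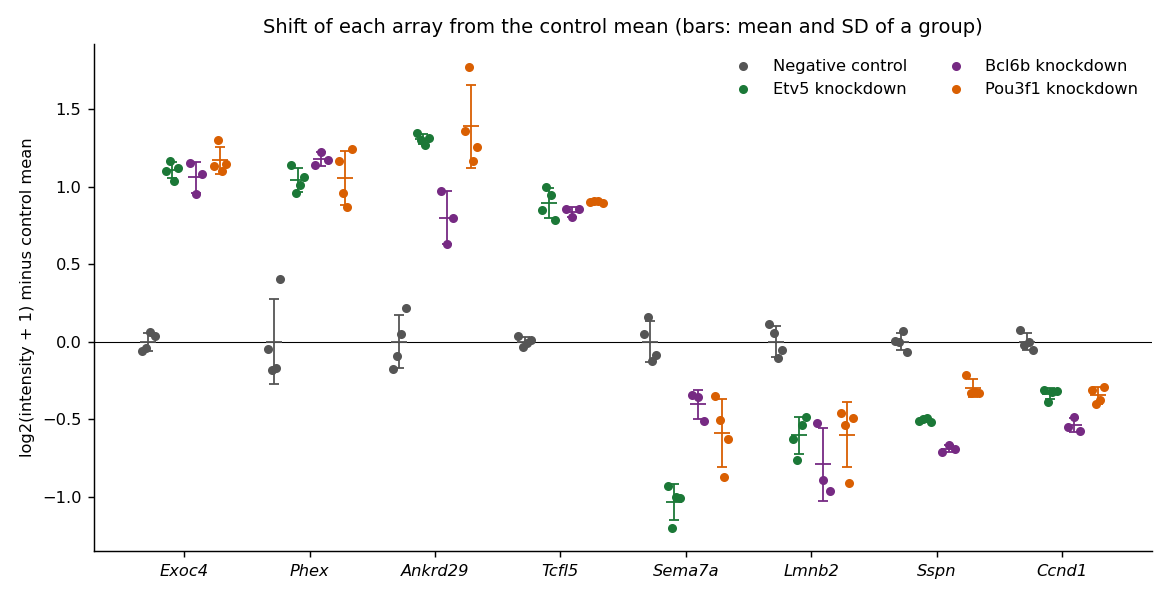
Log2(intensity + 1) of each of the 15 arrays minus the mean of the 4 control arrays for Exoc4, Phex, Ankrd29, Tcfl5, Sema7a, Lmnb2, Sspn and Ccnd1, coloured by siRNA, with bars for the mean and SD of a group. Every knockdown point lies beyond the control points of its gene, and for Ankrd29 the Bcl6b points lie lower than those of Etv5 and Pou3f1.

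The stretches upstream of genes that moved alike in all 3 knockdowns are printed here because the 3 targets are DNA-binding factors. They are RefSeq windows of the build GRCm38.p6, read 5′ to 3′ on the gene's strand and ending before the gene start. Exoc4 lies at chr6:33248878-33249089 (plus strand), Phex at chrX:157415287-157415536 (minus), Tcfl5 at chr2:180642692-180642941 (minus) and Ywhah at chr5:33018566-33018815 (plus). Capitals mark a match to 1 of 5 motifs searched on both strands: CCGGAAG (ETS factors), ATGCAAAT (the POU octamer), TTCNNNGAA (close to the BCL6 site), CACGTG (E-box) and TGACGTCA (cAMP response element).
Exoc4: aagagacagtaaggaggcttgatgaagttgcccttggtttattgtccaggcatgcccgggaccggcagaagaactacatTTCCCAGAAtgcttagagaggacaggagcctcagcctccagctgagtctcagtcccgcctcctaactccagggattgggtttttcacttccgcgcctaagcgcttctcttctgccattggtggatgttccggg
Phex: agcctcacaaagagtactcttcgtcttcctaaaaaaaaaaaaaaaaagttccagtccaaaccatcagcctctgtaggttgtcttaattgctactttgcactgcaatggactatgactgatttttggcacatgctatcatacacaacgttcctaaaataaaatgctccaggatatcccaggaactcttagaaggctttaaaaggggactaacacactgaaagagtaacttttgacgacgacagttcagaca
Tcfl5: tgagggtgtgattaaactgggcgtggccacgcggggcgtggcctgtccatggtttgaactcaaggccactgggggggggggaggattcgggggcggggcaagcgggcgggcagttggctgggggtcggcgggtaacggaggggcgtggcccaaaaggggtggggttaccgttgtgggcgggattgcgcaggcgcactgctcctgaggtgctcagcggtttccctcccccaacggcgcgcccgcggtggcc
Ywhah: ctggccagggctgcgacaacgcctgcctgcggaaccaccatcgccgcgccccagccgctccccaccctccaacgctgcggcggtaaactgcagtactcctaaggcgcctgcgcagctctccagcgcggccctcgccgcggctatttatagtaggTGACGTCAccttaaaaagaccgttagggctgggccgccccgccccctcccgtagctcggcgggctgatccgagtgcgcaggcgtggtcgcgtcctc
Exoc4 held 1 TTCNNNGAA match and Ywhah 1 TGACGTCA match, while the Phex and Tcfl5 windows held none of the 5 motifs.

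The 5 motifs were counted beside the moved genes and beside all tested genes, with no test. Windows were found for 214 of the 253 higher genes and 272 of the 321 lower genes. CCGGAAG stood in 13.7% of the windows of higher genes and 10.6% of those of lower genes, beside 13.7% for all tested genes. TTCNNNGAA stood in 4.94% and 5.14%, beside 5.57%, and ATGCAAAT in 0.76% and 0.857%, beside 1.16%. CACGTG stood in 8.75% and 10.9%, beside 8.58%, and TGACGTCA in 1.52% and 2%, beside 2.52%. A match is a description of letters and not a binding site.

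Some genes of the mitochondrion stood among the rises. Crls1, the synthase of the mitochondrial lipid cardiolipin, was at 444.6 to 535.2 on the control arrays and at 698.6 to 959.9 on the knockdown arrays, a rise of 0.74. Tk2, the mitochondrial thymidine kinase, rose by 0.71, from 238.7 to 241.4 in control to between 355.3 and 456.9. Ppargc1a, a coactivator that drives mitochondrial biogenesis, rose by 0.68, and its 4 other probe sets rose by 0.28 to 0.65. The limma adjusted p-values were 5.02e-08, 5.02e-08 and 7.06e-07. Of the 15 tested genes of cardiolipin and mitochondrial membranes, however, only Crls1 and Ppargc1a rose, while Lclat1 fell by 0.28 and Pgs1 fell by 0.11. The list thus had 2 rises and 2 falls, beside 4.98% and 8.87% of all tested genes. At an unadjusted limma p under 0.05 these were 2 and 7. The list median was -0.08, beside -0.03 for all tested genes. A second Crls1 probe set differed by 0.10 and was not called (limma adjusted p 0.195).

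Chmp3, Stam2, Alcam and Mmp13 act in membrane sorting, adhesion or the matrix, and no theme was tested for them. Chmp3, a subunit of the ESCRT-III complex that cuts membrane necks, rose by 0.66, and its other tested probe set by 0.55. Stam2, which sorts ubiquitin-marked receptors, rose by 0.28, while the ESCRT genes Vps36 and Vps4b fell by 0.18 and 0.09. The list of endosomal sorting genes thus had 2 rises and 2 falls among 24, beside 4.98% and 8.87% of all tested genes. Alcam, a cell adhesion molecule, rose by 0.71, from 170.5 to 218.2 in control to between 249.8 and 387.8. Its 3 other tested probe sets rose by 0.54 to 0.78. Mmp13, a collagenase, rose by 0.63, with control arrays at 40.3 to 51.0 and knockdown arrays at 57.5 to 97.9.

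The other large rises had mixed roles. Camk2n1, an inhibitor of the kinase CaMKII, rose by 0.89 (limma adjusted p 2.87e-06). Its control arrays lay between 94.2 and 140 and the knockdown arrays between 165 and 284, with the Etv5 arrays highest. Asph, an aspartyl hydroxylase, rose by 0.78. Of its 2 other tested probe sets, however, 1 rose by 0.50 and 1 differed by -0.07 (limma adjusted p 0.47). Ube2q2, a ubiquitin-conjugating enzyme, rose by 0.75, from 746.2 to 777.3 in control to between 1193 and 1415. Of the 23 tested enzymes of that class, Ube2b rose too, by 0.08, and Ube2g2, Ube2j1 and Ube2z fell. That made 2 rises and 3 falls, beside 4.98% and 8.87% of all tested genes. Zfp667, a zinc finger protein, rose by 0.66 and Kctd14 by 0.63.

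Sema7a, a membrane-anchored semaphorin, had the largest fall. Its control arrays read 145, 157, 129 and 132. The Etv5 arrays read 73.0, 60.4, 69.4 and 69.1, the Bcl6b arrays 110, 109 and 98.1, and the Pou3f1 arrays 110, 98.3, 76.1 and 90.6. The Etv5 arrays were lowest, and the highest knockdown array stayed below the lowest control. The pooled difference was -0.68 ± 0.08 (SE; limma adjusted p 2.56e-05).

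Sspn and Ccnd1 were brighter and fell more evenly within each group. Sspn, the sarcospan of the dystrophin complex, read 1116, 1111, 1163 and 1059 in control. It read 780.5, 784.6, 790.0 and 774.2 in Etv5, 677.6, 699.3 and 687.3 in Bcl6b, and 958.6, 883.3, 885.6 and 884.4 in Pou3f1 knockdown. The 3 knockdown groups did not overlap one another. Its pooled difference was -0.50 ± 0.03 (SE; limma adjusted p 2e-08), and its other probe set fell by 0.50. Ccnd1, the cyclin D1 that carries growth factor signals into the cell cycle, read 5996, 5607, 5663 and 5482 in control. It read 4581, 4346, 4535 and 4552 in Etv5, 3875, 4051 and 3812 in Bcl6b, and 4570, 4297, 4372 and 4645 in Pou3f1 knockdown. The Bcl6b arrays were the lowest, and the other knockdowns overlapped. The pooled difference was -0.41 ± 0.03 (SE; limma adjusted p 4.98e-08), and the other probe sets fell by 0.39 and 0.31.

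The remaining large falls covered several roles. Lmnb2, the nuclear lamin B2, read 40.3 to 47.1 in control and 21.9 to 31.3 in the knockdowns, and fell by 0.67 (limma adjusted p 1.29e-04), with another probe set at -0.57. Prkar2a, a regulatory subunit of protein kinase A, fell by 0.47, and its other tested probe sets fell by 0.43 and 0.36. Agpat3, an acyltransferase of phospholipid synthesis, fell by 0.51 and Galnt10, which starts O-linked sugar chains, fell by 0.45. Of 3 other Agpat3 probe sets 1 fell by 0.35 and those at -0.35 and -0.12 were not called, and a second Galnt10 probe set at -0.06 was not called either (limma adjusted p 0.579). Map2k3, a kinase that activates p38, fell by 0.37, and Nkiras2, an inhibitor of NF-kappa-B signalling, fell by 0.41. Paip1, a partner of the poly(A)-binding protein, fell by 0.53, but its 2 other tested probe sets, at 0.10 and -0.03, were not called. Zc4h2, Dnajc27, C1qtnf6, Kyat3 and Slc35f6 completed the 15, with differences between -0.49 and -0.37.

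The other probe sets of the moved genes were read on the same arrays and so share their samples. For 157 of the higher genes there were 306 such probe sets, of which 162 (52.9%) were called higher and 0 lower in limma's fit of all probe sets. For 181 of the lower genes there were 292, of which 85 (29.1%) were called lower and 2 higher. Over all 8970 other probe sets, 4.92% were higher and 6.44% lower. Among the leading 15 rises and 15 falls, 13 of 16 and 9 of 15 other probe sets were called in the gene's direction, and 0 in the opposite one.

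**Figure D3:**
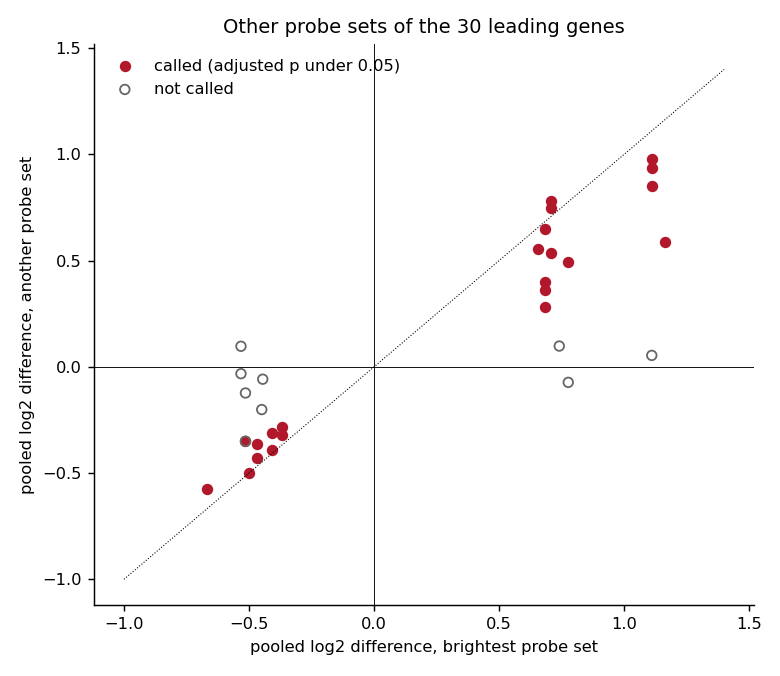
Pooled log2 difference of every other tested probe set of the 30 leading genes against that of the gene's brightest probe set. Called probe sets are filled and the diagonal marks equal differences. Filled points share the sign of the brightest probe set (13 of 16 for rises, 9 of 15 for falls), and open points lie between -0.35 and 0.10.

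How alike the 3 shifts were was read from each knockdown's own difference. All 3 use the same control arrays, so that a deviation of the controls enters each of them alike. Against control, 1062 genes (9.56%) were called in Etv5 knockdown, with 509 higher (4.58%) and 553 lower (4.98%). In Bcl6b knockdown 1212 (10.9%) were called, with 454 higher (4.08%) and 758 lower (6.82%). With median centring the Bcl6b calls were 285 higher and 2911 lower, so that 8.92% of them were higher in place of 37.5%. In Pou3f1 knockdown 1272 (11.4%) were called, with 481 higher (4.33%) and 791 lower (7.12%), a higher share of 37.8% that was 47.9% with quantile normalization. Between knockdowns, a comparison without the controls, 503 genes (4.53%) were called for Etv5 against Bcl6b, 708 (6.37%) for Etv5 against Pou3f1 and 570 (5.13%) for Bcl6b against Pou3f1.

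The 253 higher genes had median shifts of 0.29, 0.25 and 0.26 in Etv5, Bcl6b and Pou3f1 knockdown. The median range between the largest and smallest of a gene's 3 shifts was 0.09. The largest shift was under 1.5 times the smallest for 164 of them and under 2 times for 221. For the 321 lower genes the median shifts were -0.16, -0.18 and -0.19 and the median range was 0.08. Here 143 were within 1.5 times and 243 within 2 times. An F test among the knockdowns called 1023 genes (9.2%) of all tested, and 19 of the higher genes (7.51%) and 29 of the lower ones (9.03%). Among called genes whose arrays overlapped it called 59 of 301 higher genes (19.6%) and 134 of 665 lower genes (20.2%). Requiring 11 arrays on 1 side itself favours genes that vary little among the knockdowns, so these shares are a description.

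**Figure D4:**
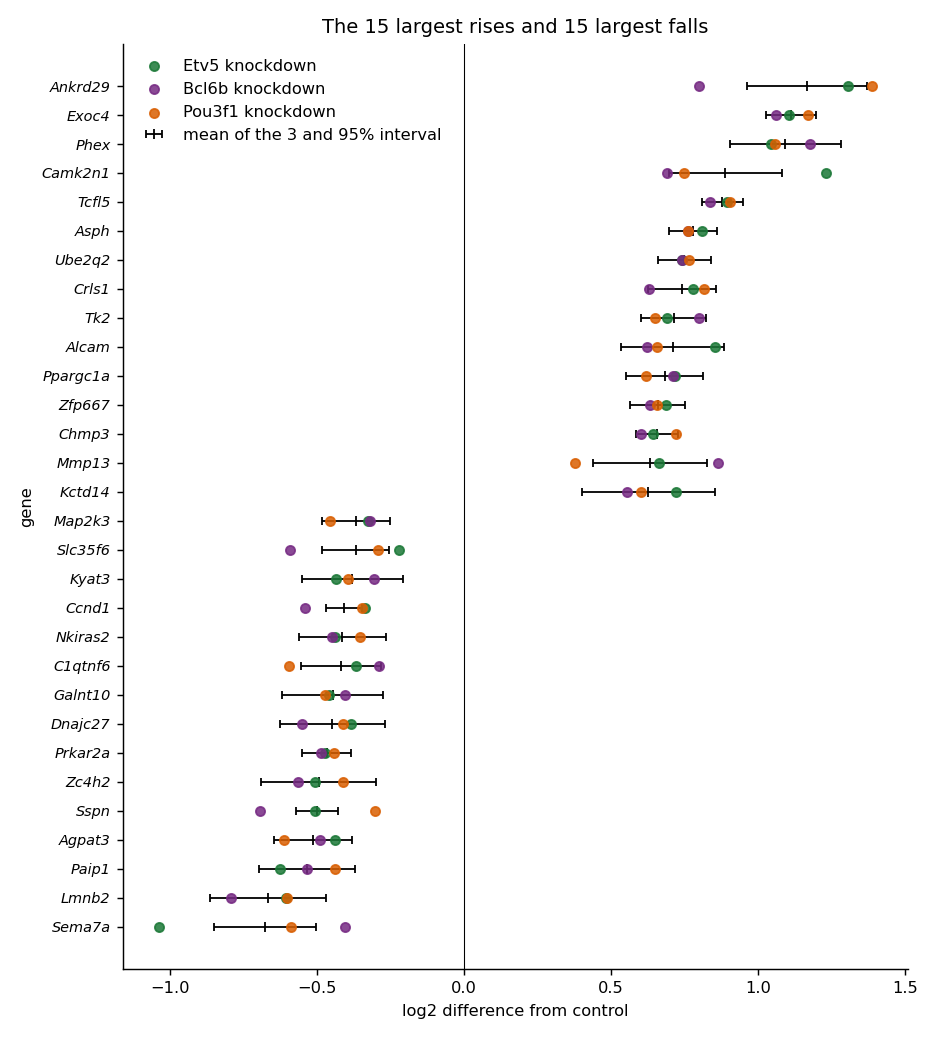
Log2 difference from control in each knockdown (coloured points) for the 15 largest rises and 15 largest falls, with the mean of the 3 and its 95% interval in black. The points of Ube2q2 and Prkar2a lie close together, while those of Ankrd29, Camk2n1, Sema7a and Sspn lie apart, and all share the 4 control arrays.

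Among the non-overlapping genes with a pooled difference of at least 0.5, the closest shifts belonged to Ywhah, a 14-3-3 adaptor protein. Its control arrays read 1969, 2135, 1905 and 2261. The Etv5 arrays read 2974, 3141, 3051 and 3243, the Bcl6b arrays 3117, 3186 and 2943, and the Pou3f1 arrays 3276, 3039, 2972 and 3004. The knockdown groups lay on top of one another, with shifts of 0.59, 0.58 and 0.57. The difference between Etv5 and Bcl6b knockdown was 0.01, with a 95% interval from -0.10 to 0.12. Ube2q2 (range 0.02), Ppp1r21, a regulator of protein phosphatase 1 (0.03), Ccng2, an atypical cyclin linked with leaving the cell cycle (0.04), and Tubb2b, a tubulin (0.04), followed.

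Of the leading rises the shifts of Exoc4, Tcfl5 and Phex passed no test between knockdowns, which does not show that they were equal. For Exoc4 the difference between Bcl6b and Pou3f1 knockdown was -0.11 (95% interval -0.22 to 0.00), and that between Etv5 and Bcl6b 0.05 (-0.07 to 0.16). For Tcfl5 the intervals of the 3 differences ran from -0.16 to 0.15. For Phex they were wider, from -0.38 to 0.37.

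Some non-overlapping genes differed in size between knockdowns, and 3 of the leading 15 rises and 5 of the leading 15 falls were called by the F test. Ankrd29 rose by 1.31 in Etv5, 0.80 in Bcl6b and 1.39 in Pou3f1 knockdown, and Bcl6b minus Pou3f1 was -0.59 (limma adjusted p 0.0084). Camk2n1 rose by 1.23 in Etv5 knockdown, 0.69 in Bcl6b and 0.75 in Pou3f1. Sema7a fell by 1.04 in Etv5, 0.41 in Bcl6b and 0.59 in Pou3f1 knockdown, with an Etv5 minus Bcl6b difference of -0.63 (limma adjusted p 0.00167). Got1, the cytosolic aspartate aminotransferase, fell by 0.11, 0.26 and 0.57 in Etv5, Bcl6b and Pou3f1 knockdown (limma adjusted p of the F test 1.38e-05). Mmp13 rose by 0.66, 0.86 and 0.38.

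Gene lists were described by their calls and medians beside those of all tested genes, of which 4.98% were called higher and 8.87% lower. Those shares are the comparison for every list count in this report. Targets of p53 and apoptosis genes were the list with most falls for its size: 8 of 17 fell and 1 rose, with a median of -0.12 beside -0.03. All 11 knockdown arrays lay below the controls for only 3 of the 17 and above for 1. Of all tested genes 3.11% and 2.34% did so. The F test among the knockdowns called 5 of the 17, beside 9.2% of all tested genes. Eda2r fell by 0.32, Sesn2 by 0.31, Ccng1 by 0.27, Zmat3 by 0.22, Ei24 by 0.20 and Cdkn1a, the inhibitor p21, by 0.18, while Fas rose by 0.24. With Bcl6b knockdown replicate 1 the falls were 4 of 17. In the Bcl2 family of 13, Bcl2, which opposes apoptosis, rose by 0.54 (278 to 305 in control, 395 to 464 in the knockdowns; limma adjusted p 1.44e-07), while Bak1 and Bad, which promote it, fell by 0.52 and 0.13. A dimmer Bcl2 probe set, at 0.18, was not called (limma adjusted p 0.114). Bak1 arrays overlapped with the controls, and both falls lost their call with the mean over probe sets or with Bcl6b knockdown replicate 1.

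Genes of glycolysis and the hypoxia response showed 7 rises and 0 falls among 18 in limma's test, beside 4.98% and 8.87% of all tested genes. At an unadjusted limma p under 0.05 these were 8 and 0. All 11 knockdown arrays lay above the controls for only 3 of the 18 and below for 0. Of all tested genes 2.34% and 3.11% did so. The list median was 0.07 beside -0.03 for all genes, and 0.02 with the mean over probe sets. Its members ran from -0.35, which was not called, to 0.40. Bnip3, a mitophagy receptor, read between 2204 and 2357 on 3 control arrays and 2684 to 3280 in the knockdowns, with the remaining control array slightly lower, and rose by 0.40 (limma adjusted p 5.37e-08). Ankrd37 rose by 0.31, Pdk1, which turns pyruvate away from the mitochondrion, by 0.28, Pfkl by 0.20, the glucose transporter Slc2a1 by 0.18, Tpi1 by 0.14 and Pgk1 by 0.09. With Bcl6b knockdown replicate 1 only 2 of 18 were called. Unfolded protein and amino acid stress genes showed 6 falls and 0 rises among 21 (6 and 1 at an unadjusted limma p under 0.05), and all were small. Sesn2, Psat1, Edem1, Pdia6, Calr and Hspa5 differed by -0.31 to -0.08. A second Psat1 probe set, at -0.01, was not called (limma adjusted p 0.916). The calls fell to 2 with the mean over a gene's probe sets and to 0 with Bcl6b knockdown replicate 1.

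In the RNA interference machinery, which all siRNAs use, Tnrc6a rose and Xpo5 fell, and the other 10 of 12 were not called. That was 1 rise and 1 fall, beside 4.98% and 8.87% of all tested genes. Tnrc6a, a partner of the Argonaute proteins in silencing, read 5237 to 5572 in control and 7023 to 8657 in the knockdowns, a rise of 0.50 (limma adjusted p 1.39e-06). Xpo5, which exports microRNA precursors, fell by 0.12, a call that was lost with quantile normalization. Genes of double-stranded RNA sensing and the interferon response did not share a direction: 0 of 26 rose and 3 fell in limma's pooled test (1 and 4 at an unadjusted p under 0.05), beside 4.98% and 8.87% of all tested genes. The F test called 24 of them, beside 9.2% of all. Their median was 0.09 in Etv5, 0.39 in Bcl6b and -0.73 in Pou3f1 knockdown. The chemokine Ccl5 differed by 0.04, 0.80 and -1.97 in that order.

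Regulators of stem cell maintenance also differed mostly between knockdowns. Of 20, 3 rose, 4 fell and 14 were called by the F test, beside 4.98%, 8.87% and 9.2% of all tested genes, and 0 had all 11 arrays on 1 side. The 4 falls were the targets Etv5, Bcl6b and Pou3f1, which the F test called too, and Lhx1. Lhx1 differed by -1.33 in Etv5, 0.10 in Bcl6b and 0.14 in Pou3f1 knockdown, and Ret, the GDNF receptor, by -0.01, 0.30 and 0.38. Zbtb16, a marker of undifferentiated spermatogonia, rose by 0.17 in the pool. Among differentiation genes, Kit, the receptor of differentiating spermatogonia, rose by 0.16 with 11 arrays above the controls, but a second Kit probe set was at -0.05 (limma adjusted p 0.749). Sohlh1 was called higher as well, but stood at 0.61 in Etv5, 0.03 in Bcl6b and 0.06 in Pou3f1 knockdown. The other 12 of 14 were not called. The rises of this list were 1 with median centring or probe set means and 0 with Bcl6b knockdown replicate 1. In the G1 list of 18, Ccnd1, Ccnd3, Ccne1 and Cdkn1a fell and Cdk6 and Rb1 rose, but the 2 rises were lost with median centring, with the mean over probe sets and with Bcl6b knockdown replicate 1. The falls of that list were 5 with median centring, 3 with quantile normalization or probe set means and 1 with Bcl6b knockdown replicate 1. The S phase list had 1 fall among 21, Pola1, and the G2 and M phase list 2 among 19, Top2a and Ccna2, and these 3 calls were lost with the mean over probe sets and with Bcl6b knockdown replicate 1. The pluripotency genes Tcl1 and Klf4 rose by 0.45 and 0.21, with a second Klf4 probe set at 0.07 not called, and Klf5 and Myc fell by 0.27 and 0.16. The falls of this list were 1 with quantile normalization or probe set means. With Bcl6b knockdown replicate 1 its rises were 1 and its falls 0.

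The remaining lists are to be read beside the shares of all tested genes, 4.98% higher and 8.87% lower. Of 20 FGF and MAPK feedback genes, which respond to growth factors, 0 rose and 4 fell: Etv5, Ccnd1, Fosl1 and Myc. Etv5 is an siRNA target and was lower only in its own knockdown. The F test called 9 of the 20, beside 9.2% of all tested genes. With Bcl6b knockdown replicate 1 the falls were 2. Meiosis genes had 2 rises among 16, Tcfl5 and Sycp3 (0.14). Chaperones Hspd1 and Cct3 fell by 0.12 and 0.07, 2 of 13 heat shock and folding genes. Other tested Cct3 probe sets, at -0.02, -0.04 and -0.08, were not called. The falls were 1 with quantile normalization, with probe set means or with Bcl6b knockdown replicate 1. In the lysosome and autophagy list of 20, Lamp2 rose by 0.11, a call lost with median centring, and Wipi1 and Ctsl fell. Cholesterol synthesis genes had 0 calls among 15 in limma's test, and 0 at an unadjusted p under 0.05.

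**Figure D5:**
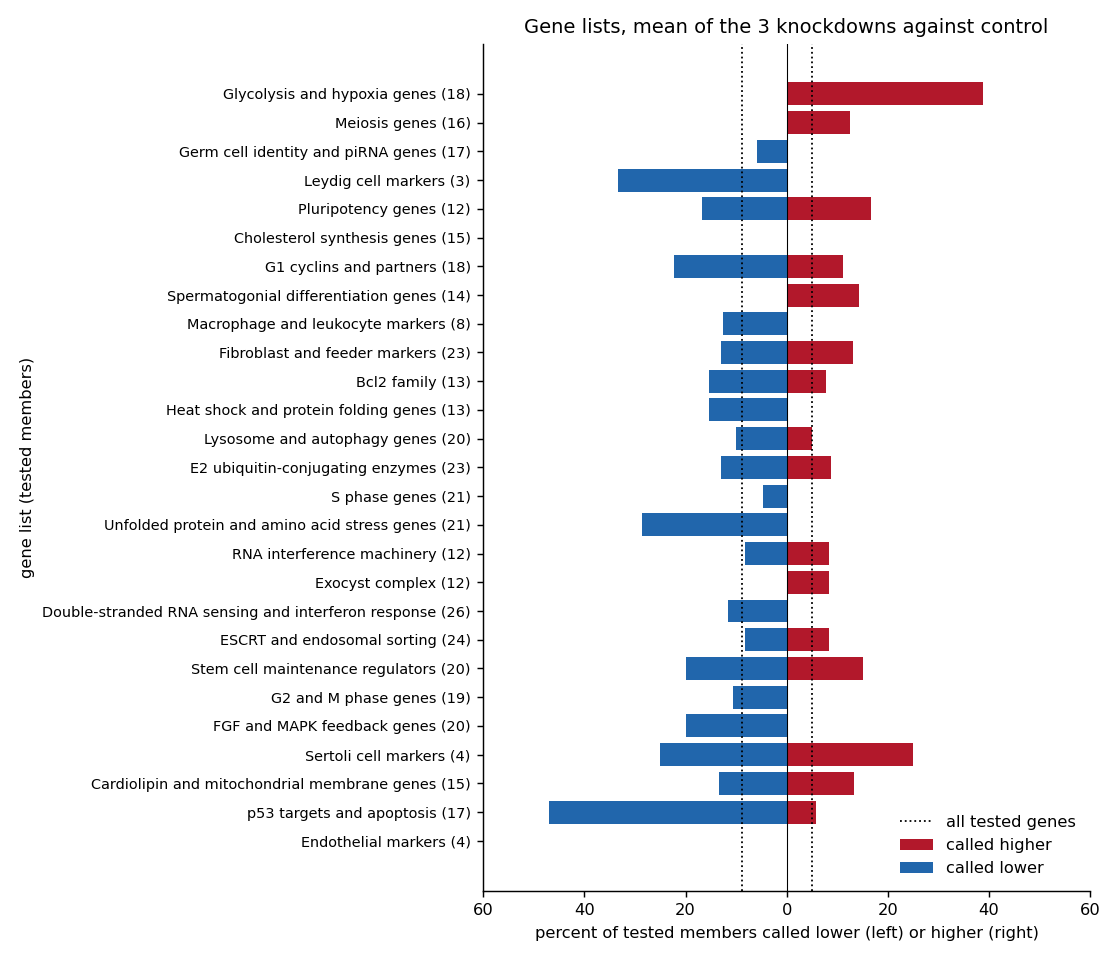
Percent of the tested members of each of 27 lists (number in brackets) called lower (blue, to the left) or higher (red, to the right) in the pooled comparison, with dotted lines at the percent over all tested genes (8.87 and 4.98). The longest blue bar is that of the p53 list (8 of 17) and the longest red bar that of the glycolysis and hypoxia list (7 of 18).

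Markers of other cell types were read on the same arrays, and in bulk RNA fewer cells of a type and less RNA per cell cannot be told apart. Of 23 fibroblast and feeder markers, all tested, 3 rose and 3 fell, beside 4.98% and 8.87% of all tested genes. Vim, the intermediate filament vimentin, read 32410 to 33820 in control and 38410 to 47200 in the knockdowns, a rise of 0.33 (limma adjusted p 1.13e-05), Postn rose by 0.15 and Pdgfrb by 0.22. Col1a1, Timp1 and Sparc fell by 0.19, 0.12 and 0.10. With the mean over probe sets 6 rose and 1 fell, and with Bcl6b knockdown replicate 1 these were 1 and 0. Their summed intensity was 243900 to 246300 in control, 248400 to 262700 in Etv5, 247100 to 253400 in Bcl6b and 244100 to 250500 in Pou3f1 knockdown. The part of these cells in the results was not tested.

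Germ cell markers summed to 53970 to 54940 in control and 53000 to 56000 over the knockdowns, with 1 of 17 called, Tex101, which fell by 0.18. Of 4 tested Sertoli cell markers, Clu rose by 0.14 and Rhox5 fell by 0.13, and 0 were called with Bcl6b knockdown replicate 1. Other Clu probe sets were at 0.12, which was called, and at 0.01 and -0.01, which were not. Of 12 Sertoli cell markers 8 lay below the median on all arrays, among them Amh, Fshr, Gata4 and Wt1, and the sum was 13780 to 14340 in control and 13390 to 14960 in the knockdowns. Of 14 macrophage markers 6 did so, among them Adgre1 and C1qa, with sums of 791 to 884 and 754 to 953. Lyz2, a lysozyme of macrophages, was the largest called fall of all, at -0.996, but its arrays overlapped at 46.9 to 116 in control and 9.74 to 63.2 in the knockdowns. Star, 1 of 3 tested Leydig cell markers, fell by 0.14. Of 13 endothelial markers 9 lay below the median on all arrays, among them Pecam1 and Cdh5, and the sum was 412 to 462 in control, 220 to 323 in Etv5, 428 to 459 in Bcl6b and 372 to 444 in Pou3f1 knockdown. The part of these cells in the results was not tested either.

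The held-out array gives a further reading, limited by its 3' bias and by the control arrays it shares with the selection. Genes were picked by the same 4 controls, so shares above those of all tested genes are partly built in and are no independent support. Bcl6b knockdown replicate 1 lay above all 4 controls for 169 of the 253 higher genes (66.8%), beside 49.8% of all tested genes. It lay below them for 170 of the 321 lower genes (53%), beside 36.2% of all. Of the leading 15 rises 13 were above the controls on it, Ube2q2 was within their range and Asph below. Of the leading 15 falls 6 were below, 7 above and 2 within. Exoc4 read 4350 on it, Tcfl5 2849, Phex 289 and Ankrd29 64.9, all above the controls.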

How the data were processed

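Biotin-labelled material from total RNA was read on Affymetrix mouse arrays, per the labels. The deposited values are linear intensity values from 1.66 to 71511, summarised by the authors to 1 value per probe set and array. Affymetrix Expression Console 1.1, Partek 6.4, MAS5 and GCRMA are listed in the submitters' processing notes; their roles, the normalization and any filters are not given in the sources used here.

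Of 45101 probe sets, 64 were controls, and of the rest 34945 were paired with 1 gene, 932 with several and 9160 with none. Each of 18193 genes took its probe set with the highest mean. The test took the 11114 genes that exceeded an array's median on 4 or more of the arrays. Values were taken as log2 of intensity plus 1, which understates changes of dim genes. All groups were fitted together with limma 3.58.1 in R 4.3.3 (lmFit, eBayes with an intensity trend), with two-sided p-values adjusted by Benjamini-Hochberg across the tested genes. Bcl6b knockdown replicate 1 was not in the fit. Values of other probe sets came from a fit of all probe sets that passed the same filter. The fit was tested on simulated data. No arrays held identical values, and no label gives a batch.

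Named were the 3 targets, Exoc4, Phex, Ankrd29 and Tcfl5, the 15 largest rises and falls among non-overlapping called genes without clone names, the 5 with the widest and the 5 with the narrowest range of shifts (the latter with a pooled difference of at least 0.5), and the 2 called genes with the smallest adjusted p of each of 27 lists. Further list members and genes at the edge were named after their values were seen. Of 496 list entries, 464 were matched and 419 tested. The members and lists were chosen with earlier results of these data known. The fits were repeated with quantile normalization, median centring, other filters, a pseudocount of 16, probe set means, every probe set, estimated array weights, no trend, equal weights for the 11 arrays, a replicate block, each knockdown or array left out, and the held-out array put back. Figures used matplotlib 3.10.9 in Python 3.11.15.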

Additional observations from a re-analysis of the deposited data

Results flagged for a closer look

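A single array stood apart within its group of 4 by Dixon's criterion for 14 gene and group combinations. The criterion is set so that chance flags about 1 in 20 groups, and many groups were looked at. In Etv5 knockdown these were replicate 3 for Etv5 (intensity 1676), Bcl6b (898.6), Ei24 (4138) and Eda2r (1592), and replicate 1 for Asph (1307) and Prkar2a (796.5). In Pou3f1 knockdown they were replicate 3 for Lmnb2 (22.68), Zc4h2 (146.3) and Wipi1 (259.9), replicate 1 for Sspn (958.6) and replicate 4 for Vim (47200). In the control they were replicate 1 for Tk2 (238.7), replicate 3 for Klf4 (1198) and replicate 4 for Rhox5 (1839). Replicate 3 was thus the array with the highest Etv5 and Bcl6b intensity of the Etv5 knockdown.

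The F test of limma among the 3 knockdowns, Benjamini-Hochberg adjusted over all tested genes, called 20 of the named genes. The targets had adjusted p-values of 5.96e-07 (Etv5), 6.44e-07 (Bcl6b) and 3.02e-04 (Pou3f1). Of the rises these were Ankrd29 (0.0101), Camk2n1 (0.00648), Mmp13 (0.0335) and Bnip3 (0.00627). Of the falls they were Sema7a (0.00156), Sspn (3.19e-05), C1qtnf6 (0.0493), Ccnd1 (0.00292), Slc35f6 (0.00424), Got1 (1.38e-05) and Eda2r (6.12e-04). The other members of lists were Tlr3 (4.6e-08), Ccl5 (1.93e-09), Sox3 (1.29e-05), Sohlh1 (1.02e-05), Fosl1 (0.021) and Wipi1 (0.00808), whose arrays overlapped with the controls.

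On the held-out array, Bcl6b knockdown replicate 1, 169 of the 253 higher genes lay above all 4 controls, which had also picked these genes.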

How the results depend on the processing

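All 6 gene counts fell when Bcl6b knockdown replicate 1 was put back: 277 genes were called in the pooled comparison, 357 did not overlap, 331 differed among the knockdowns, and 230, 361 and 251 were called in Etv5, Bcl6b and Pou3f1 knockdown. With all probe sets in place of genes the same counts were 2484, 1005, 1850, 1631, 2326 and 1938, out of more features tested. Median centring gave 1813 genes among the knockdowns and 3196 for Bcl6b knockdown, and array weights gave 1718 among the knockdowns, 1634 for Etv5 and 2110 for Bcl6b knockdown. With the 11 arrays weighted equally, 967 genes were called in the pool. Without the Etv5 arm 1061 genes did not overlap and 570 differed between the other two knockdowns, and without the Pou3f1 arm these were 1023 and 503, from fewer arrays. The cause of the other moves was not tested.

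Leaving out 1 array at a time gave 919 to 1749 pooled calls. The lowest, 919 to 974, came from leaving out any 1 of the 4 control arrays (919 without replicate 1, 919 without replicate 2, 956 without replicate 3 and 974 without replicate 4). Genes without overlap numbered 631 to 806 and those among the knockdowns 751 to 1144. Calls were 699 (without control replicate 1) to 1317 for Etv5, 537 (without Bcl6b replicate 2) to 1476 for Bcl6b and 884 to 1454 for Pou3f1 knockdown. Of the 574 genes, 467 to 574 kept their call and direction in these fits, 549 did so with median centring, 548 with quantile normalization, 438 with probe set means, where 8 of the 574 changed sign, and 210 with Bcl6b knockdown replicate 1.

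Of the named genes, the pooled sign turned for Top2a with probe set means (0.005), for Etv5 without the Etv5 arm (0.10, adjusted p in limma 0.623), and without the Pou3f1 arm for Tlr3 (0.046) and Ccl5 (0.42, adjusted p in limma 0.0202). Exoc4 differed by 0.79 to 1.15, Phex by 0.56 to 1.23, Ankrd29 by 0.88 to 1.35 and Tcfl5 by 0.85 to 0.90 over all settings, always called. The replicate numbers showed no clear pairing of the arrays, though so weak a check cannot exclude one. Of 21 pairs with a shared number 3 correlated above 0.1, and 4 of 15 arrays were closest to their own number. These values ran from -0.26 to 0.32, and from -0.34 to 0.30 for other pairs. They are not the array correlations of 0.996 to 0.997 given earlier. With the replicate block 1422 genes were called in the pool, 926 among the knockdowns, and 1040, 989 and 1251 in Etv5, Bcl6b and Pou3f1 knockdown.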
